A study of Mus musculus with 6 samples.

Results

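Genes of GABA handling were examined in sorted brain astrocytes, 9 of the 45777 genes in the deposited table. They were taken by gene symbol from a named list, chosen with earlier results of these data known, and all 9 were found. They were the GABA transporters Slc6a11 and Slc6a13, the breakdown enzymes Abat and Aldh5a1, the monoamine oxidase Maob, the GABA-B receptor subunits Gabbr1 and Gabbr2, and the GABA-A receptor subunits Gabra2 and Gabrg1. The mice were males of the C57BL/6 background carrying Aldh1l1-CreERT2 and tdTomato fl/fl, although the sample labels give the genotype as WT. The Cre recombinase is driven by the promoter of the astrocyte gene Aldh1l1, and tamoxifen given for 5 days switches on the red protein tdTomato in those cells, in both groups. Streptozotocin (STZ), which destroys pancreatic beta cells, was injected once into mice aged 8 weeks, while vehicle mice were given citrate buffer, and only STZ mice whose blood glucose passed a limit set by the study were used. After 21 days the tdTomato-positive brain cells were sorted, and every sample is a pool from 3 mice. There were 3 vehicle and 3 STZ samples. The comparison asks how the astrocyte transcriptome differs in hyperglycemic mice.

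GABA is the main inhibitory transmitter of the brain. Astrocytes take it up from around synapses through membrane transporters of the SLC6 family, and in mitochondria GABA transaminase (encoded by Abat) turns it into succinate semialdehyde, which succinate semialdehyde dehydrogenase (encoded by Aldh5a1) oxidizes to succinate for the TCA cycle. Astrocytes can also make GABA from the polyamine putrescine by a route that includes monoamine oxidase B. They sense GABA through the metabotropic GABA-B receptor, a dimer of the Gabbr1 and Gabbr2 products, and through GABA-A receptors, which are chloride channels assembled from several subunits.

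Of the 9 genes, 4 had lower normalized CPM in every STZ sample than in any vehicle sample (3 in the authors' TPM, where Gabbr1 overlapped), and 0 were higher without overlap. These were Slc6a11, Abat, Gabbr1 and Gabra2, with differences of -24.6%, -24.0%, -21.0% and -29.1% in STZ. Over all 22337 genes tested, 9.85% were lower and 8.64% higher in STZ without overlap of the groups. With edgeR's quasi-likelihood test the same 4 genes had an unadjusted p under 0.05, against 5.65% of all tested genes lower at that level. At the threshold used for calls (adjusted p under 0.05 together with more than 1.5-fold difference) edgeR called 0 of the 9 and 0.0224% of all genes. DESeq2 with the same threshold also called 0 of the 9, against 1.05% of all genes. Without the limit on fold change DESeq2 gave Abat an adjusted p of 0.0258 and Gabra2 one of 0.0330, both lower in STZ, against 1.71% of all genes under 0.05 and 0.895% lower. The other 5 genes, Slc6a13, Aldh5a1, Maob, Gabbr2 and Gabrg1, had overlapping groups.

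**Figure D1:**
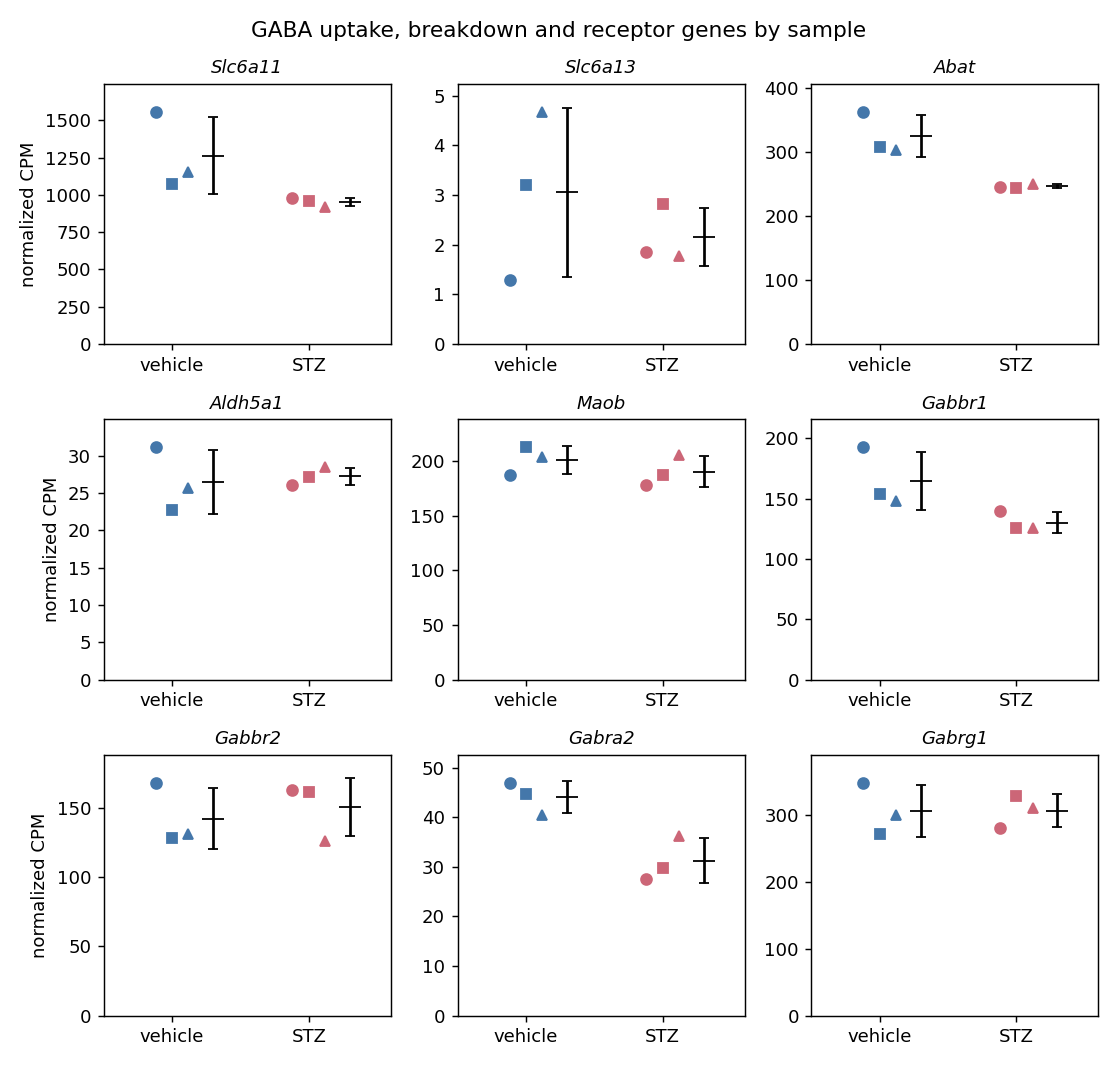
Normalized CPM (read counts scaled by library size) of each of the 9 genes in each sample, on axes that start at 0. Circles, squares and triangles are replicates 1, 2 and 3, blue for vehicle and red for STZ, and the bars give the mean and SD of each group (n = 3). The STZ points of Slc6a11, Abat, Gabbr1 and Gabra2 all sit below the vehicle points, and those of the other 5 genes do not separate.

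Total counts ranged from 52529048 to 58749115 per sample, so counting error was small for all members but Slc6a13. No pair of samples was identical. Summed over 12 astrocyte markers, expression was 21044 to 24780 CPM with vehicle and 19850 to 21249 CPM with STZ, against 51.7 to 100 CPM for 10 neuronal markers and 82.1 to 160 CPM for 10 markers of inhibitory neurons, among which the vesicular GABA transporter Slc32a1 stayed at or below 0.50 CPM. Vehicle replicate 1 stood apart on the first principal component (38.8% of the variance, scores of -60.8 for this sample and -24.6 to 41.0 for the others). Choroid plexus markers summed to 11057 to 27980 CPM with vehicle, lowest in that sample, and to 13277 to 23541 CPM with STZ. Since the samples are bulk RNA, fewer cells of a type and less RNA per cell cannot be told apart.

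Levels between genes were compared on the authors' TPM, which divides by transcript length. Slc6a11 was the most abundant member, with a mean of 593 TPM ± 135 (SD, n = 6). Maob followed at 176 TPM ± 9.33, Gabrg1 at 140 TPM ± 14.7 and Abat at 134 TPM ± 23.3 (SD, n = 6). The ranges of Gabrg1 and Abat overlapped, as did those of Maob and Abat. Gabbr1 at 64.6 TPM ± 11.8 and Gabbr2 at 57.1 TPM ± 8.84 overlapped too (SD, n = 6). Gabra2 had 16.6 TPM ± 3.45, Aldh5a1 10.3 TPM ± 1.22 and Slc6a13 2.72 TPM ± 1.34 (SD, n = 6), without overlap between neighbours in this order. Within the breakdown route, Abat was at 10.8 to 16.6 times the TPM of Aldh5a1 in the 6 samples.

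**Figure D2:**
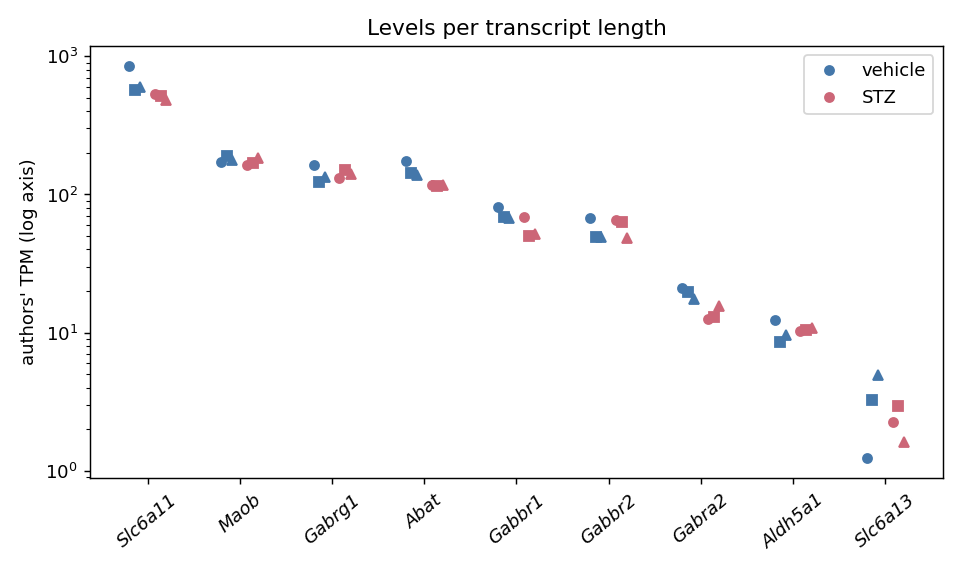
Authors' TPM of the 9 genes in each sample, on a log axis, in order of the mean over 6 samples. Circles, squares and triangles are replicates 1, 2 and 3. Slc6a11 lies highest (485 to 855 TPM) and Slc6a13 lowest (1.23 to 4.96 TPM).

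Slc6a11 (NCBI gene 243616, chromosome 6, 114131241 to 114249886, GRCm38) encodes the transporter that takes up GABA into astrocyte processes. It had 1559, 1075 and 1156 normalized CPM in the vehicle samples and 977, 961 and 921 in the STZ samples. All 3 STZ values were below the lowest vehicle value, and vehicle replicate 1 was far above the rest. The log2 fold change was -0.41 (standard error 0.144, 95% interval -0.74 to -0.07, adjusted p = 0.378, edgeR). Without vehicle replicate 1 it was -0.23. The spread was 20.5% of the mean among vehicle samples and 3.01% among STZ samples.

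Slc6a13 (NCBI gene 14412, chromosome 6, 121300288 to 121337721), a GABA transporter known in the meninges and other tissues outside the parenchyma, was low in the sorted cells. It had 69, 166 and 268 read counts with vehicle and 112, 164 and 104 with STZ, or 1.29, 3.20 and 4.68 against 1.85, 2.82 and 1.77 normalized CPM. The groups overlapped, and the log2 fold change of -0.51 had a 95% interval of -1.56 to 0.54 (adjusted p = 0.695, edgeR). Without vehicle replicate 1 it was -0.88, and without vehicle replicate 3 it was -0.07. From the authors' TPM, on the log2(TPM + 1) scale, it was -0.25 (adjusted p = 0.833, limma). Markers of meningeal and perivascular fibroblasts, 12 genes of which 11 had counts in every sample, summed to 73.5 to 146 CPM with vehicle and 111 to 126 CPM with STZ. The lowest and the highest of these sums fell in the vehicle samples with the lowest and the highest Slc6a13. In the STZ samples the highest sum was in replicate 1, and the highest Slc6a13 in replicate 2. Sums of endothelial, of pericyte and smooth muscle, and of ependymal markers were likewise lowest in vehicle replicate 1 and highest in vehicle replicate 3 among vehicle samples. The part of any of these cells in the Slc6a13 values was not tested. By TPM, Slc6a11 was at 121 to 694 times the level of Slc6a13.

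Abat (NCBI gene 268860, chromosome 16, 8513429 to 8621568), the gene of GABA transaminase, had 364, 309 and 304 normalized CPM with vehicle and 246, 245 and 251 with STZ. The STZ samples lay close together (SD 1.41% of the mean, against 10.2% with vehicle) and below every vehicle sample. Its log2 fold change of -0.40 (standard error 0.0874, 95% interval -0.60 to -0.19) had the smallest p of the 9 genes (adjusted p = 0.248, edgeR). With each sample left out in turn it ranged from -0.46 to -0.31. Aldh5a1 (NCBI gene 214579, chromosome 13, 24907579 to 24937661), which encodes the next enzyme, had 31.1, 22.7 and 25.7 normalized CPM with vehicle and 26.1, 27.2 and 28.4 with STZ. These groups overlapped (log2 fold change 0.04, 95% interval -0.25 to 0.33, adjusted p = 0.927, edgeR). Exons of Aldh5a1 share 14.1% of their bases with the antisense gene 4932702P03Rik. Use of strand in the counting is not stated, and reads of the overlap cannot be assigned to either gene. By TPM the ratio of Abat to Aldh5a1 was 14.3, 16.6 and 14.4 with vehicle and 11.5, 11.0 and 10.8 with STZ. The groups did not overlap, with a difference of -0.44 on the log2 scale (exact permutation test, two-sided, p = 0.1, the smallest that 3 samples against 3 allow, and 0.15 adjusted over the 6 ratios computed). Such a ratio within a sample does not depend on library scaling.

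Maob (NCBI gene 109731, chromosome X, 16709281 to 16817366) encodes the monoamine oxidase of astrocytes, which acts in the putrescine route to GABA. It had 187, 212 and 203 normalized CPM with vehicle and 178, 187 and 205 with STZ. The groups overlapped, and the 95% interval of the log2 fold change, -0.28 to 0.12 around -0.08, leaves out a change by 1.5-fold in either direction (adjusted p = 0.749, edgeR). Its relative Maoa had 65.9 CPM ± 3.88 with vehicle and 64.5 CPM ± 3.27 with STZ (SD, n = 3). The ratio of Maob to Maoa by TPM ranged from 4.61 to 5.88 with vehicle and from 4.88 to 5.31 with STZ (exact permutation test, p = 0.6, adjusted 0.72).

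Gabbr1 (NCBI gene 54393, chromosome 17, 37045966 to 37074305) encodes the GABA-B subunit that binds GABA. It had 193, 154 and 148 normalized CPM with vehicle and 140, 125 and 125 with STZ. The groups did not overlap in CPM, with a log2 fold change of -0.34 (standard error 0.112, 95% interval -0.60 to -0.08, adjusted p = 0.349, edgeR) that was -0.22 without vehicle replicate 1. In the authors' TPM the groups overlapped, with 68.2 in STZ replicate 1 above 68.0 in vehicle replicate 3. TPM divided by CPM for Gabbr1, relative to the median gene of each sample, ranged over 0.26 on the log2 scale, more than for 92.0% of genes at 1 CPM or more. It ranged over 0.36 for Slc6a13, more than for 95.2% of genes, and over 0.05 for Gabra2, whereas for Slc6a11, Abat, Aldh5a1, Maob, Gabbr2 and Gabrg1 it ranged over 0.02. Gabbr2 (NCBI gene 242425, chromosome 4, 46662318 to 46991714), whose product couples the receptor to its G protein, had 168, 128 and 131 normalized CPM with vehicle and 163, 162 and 126 with STZ. Its groups overlapped (log2 fold change 0.08, 95% interval -0.25 to 0.41, adjusted p = 0.860, edgeR).

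Within the same samples, the TPM of Gabbr1 was 1.21, 1.38 and 1.37 times that of Gabbr2 with vehicle and 1.05, 0.794 and 1.07 times with STZ. The groups did not overlap, with a difference of -0.46 on the log2 scale from TPM and -0.41 from CPM (exact permutation test, p = 0.1 for each, adjusted 0.15 for TPM).

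Gabra2 (NCBI gene 14395, chromosome 5, 70958392 to 71095849) encodes an alpha subunit of the GABA-A receptor. It had 46.9, 44.7 and 40.5 normalized CPM with vehicle and 27.6, 29.8 and 36.3 with STZ. Every STZ sample was below every vehicle sample, with STZ replicate 3 the nearest to them. Its log2 fold change was -0.50 (standard error 0.117, 95% interval -0.77 to -0.22, adjusted p = 0.261, edgeR), and between -0.62 and -0.41 with each sample left out. Gabrg1 (NCBI gene 14405, chromosome 5, 70751047 to 70842617), the gene of a gamma subunit, had 347, 270 and 299 normalized CPM with vehicle and 281, 329 and 309 with STZ. The groups had nearly the same mean, 305 CPM ± 38.7 and 306 CPM ± 24.2 (SD, n = 3), and the sign of the log2 fold change of 0.00 (95% interval -0.25 to 0.26, adjusted p = 0.993, edgeR) differed between scalings of the libraries. The ratio of Gabra2 to Gabrg1 by TPM was 0.128, 0.160 and 0.133 with vehicle and 0.0948, 0.0863 and 0.112 with STZ, without overlap (difference of log2 -0.52, exact permutation test, p = 0.1, adjusted 0.15).

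**Figure D3:**
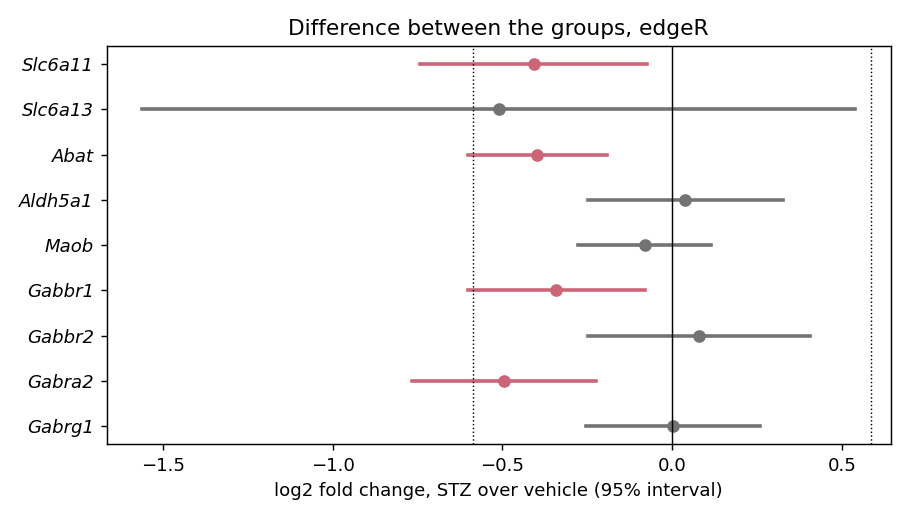
Log2 fold change of each of the 9 genes (points) with its 95% interval (lines) from edgeR, red where the groups did not overlap and grey where they did. Dotted lines mark a fold change of 1.5. The intervals of Slc6a11, Abat, Gabbr1 and Gabra2 lie below 0, and each reaches past the lower dotted line, while that of Slc6a13 is the widest (-1.56 to 0.54).

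Gabrg1 and Gabra2 are neighbours in a cluster of GABA-A receptor genes on chromosome 5, separated by 115.8 kb and read from the same strand. Further along lie Gabra4 (71569734 to 71658308), which encodes another alpha subunit, and Gabrb1 (71657921 to 72149572), which encodes a beta subunit and overlaps the start of Gabra4 on the other strand. Gabrb1 was the most abundant subunit gene after Gabrg1, at 64.7 TPM. It had 521, 421 and 454 normalized CPM with vehicle and 364, 423 and 367 with STZ (log2 fold change -0.27, adjusted p = 0.407, edgeR). Gabra4 had 72.6, 55.4 and 58.4 against 42.1, 47.0 and 60.3 normalized CPM (log2 fold change -0.32, adjusted p = 0.488, edgeR). The groups of both genes overlapped. In the order of the cluster, the log2 fold changes were 0.00 for Gabrg1, -0.50 for Gabra2, -0.32 for Gabra4 and -0.27 for Gabrb1.

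The sequences before the start sites of 3 of the genes are shown because Gabra2 and Gabrg1 are neighbours that differed in their values, and Slc6a11 is the most abundant member. They hold the 250 bases upstream of the RefSeq start site (GRCm38.p6), at chr6:114130991-114131240 on the plus strand for Slc6a11, and at chr5:71095850-71096099 and chr5:70842618-70842867 on the minus strand for Gabra2 and Gabrg1, each written 5′ to 3′. The reference table held a window for 7 of the 9 genes. Capitals mark the GC box GGGCGG on either strand.
Slc6a11: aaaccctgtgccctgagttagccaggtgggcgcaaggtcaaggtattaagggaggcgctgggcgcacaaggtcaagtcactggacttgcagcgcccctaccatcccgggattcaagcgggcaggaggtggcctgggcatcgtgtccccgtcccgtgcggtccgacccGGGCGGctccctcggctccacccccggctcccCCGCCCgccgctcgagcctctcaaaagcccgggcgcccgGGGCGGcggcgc
Gabra2: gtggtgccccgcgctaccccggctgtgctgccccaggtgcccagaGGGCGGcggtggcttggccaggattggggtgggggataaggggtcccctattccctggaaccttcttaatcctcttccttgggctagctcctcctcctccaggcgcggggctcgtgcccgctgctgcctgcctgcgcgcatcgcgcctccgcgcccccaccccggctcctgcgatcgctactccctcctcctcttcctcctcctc
Gabrg1: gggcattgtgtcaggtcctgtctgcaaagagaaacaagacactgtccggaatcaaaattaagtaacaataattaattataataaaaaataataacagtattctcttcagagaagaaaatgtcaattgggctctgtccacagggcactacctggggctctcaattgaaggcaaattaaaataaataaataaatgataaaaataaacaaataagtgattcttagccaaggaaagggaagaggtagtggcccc
The Slc6a11 window held 3 GC boxes and 25 CpG dinucleotides, that of Gabra2 1 GC box and 18 CpG, and that of Gabrg1 0 GC boxes and 1 CpG. Of 32851 windows of this length in the table, 32.7% held a GC box, and the median window had 6 CpG. Gabrg1 had fewer CpG than most windows (7.87% had fewer still), and Slc6a11 had more (89.3% had fewer). None of the 3 windows held a TATA box (TATAAA, in 12.4% of windows) or the E-box CACGTG (in 6.02%). The motifs were searched on both strands and do not overlap each other. These are descriptions of the letters in the windows.

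**Figure D4:**
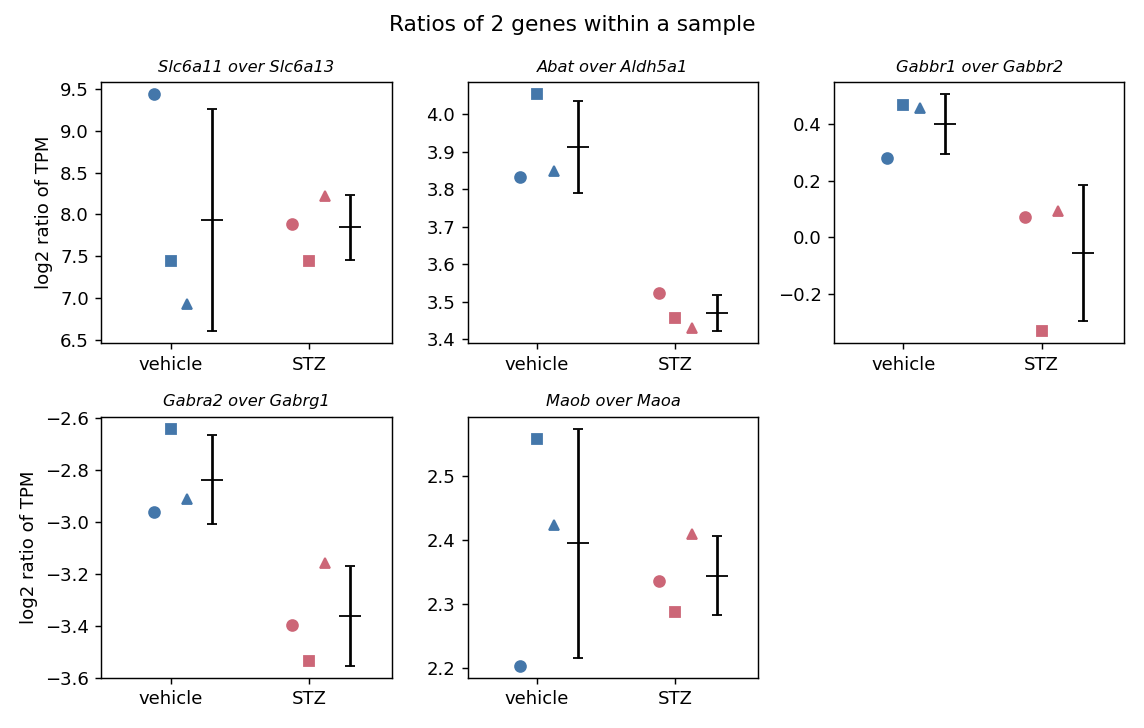
Log2 of the ratio of the TPM of a gene to that of another in the same sample, for 5 pairs. Circles, squares and triangles are replicates 1, 2 and 3, blue for vehicle and red for STZ, with the mean and SD of each group (n = 3); the axes do not start at 0. The groups separate for Abat over Aldh5a1, Gabbr1 over Gabbr2 and Gabra2 over Gabrg1, and overlap for Slc6a11 over Slc6a13 and Maob over Maoa.

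Outside the 9 genes, 109 genes in 8 lists of GABA handling were examined, of which 96 had a count in every sample and were tested. With edgeR 0 of the 96 passed the adjusted threshold, 13 had an unadjusted p under 0.05 and a higher mean in STZ and 12 a lower one (5.63% and 5.65% of all genes), and DESeq2 called 3 (1.05% of all genes). The median log2 fold change of the 96 was -0.00, against 0.01 for all genes tested and -0.34 for the 9. Since the 9 genes and the lists were chosen with earlier results of these data known, this comparison is a description only.

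Among the other transporters and release channels, 5 of 13 tested genes were higher and 1 was lower at an unadjusted p under 0.05, with a median log2 fold change of 0.31. Abundant among them were the glutamine transporters Slc38a3 and Slc38a2. Slc38a2, which also carries other small neutral amino acids, had 65.4, 67.7 and 78.5 normalized CPM with vehicle and 97.7, 103 and 149 with STZ, without overlap (log2 fold change 0.72, adjusted p = 0.258 by edgeR, 0.00506 by DESeq2). Slc38a3 had 890, 857 and 864 against 677, 737 and 824, also without overlap but lower in STZ (log2 fold change -0.22, adjusted p = 0.437, edgeR). DESeq2 also called Slc6a6, the taurine transporter, which carries GABA weakly. It had 24.7, 25.6 and 47.1 normalized CPM with vehicle and 74.2, 64.4 and 52.3 with STZ (log2 fold change 0.97, adjusted p = 0.301 by edgeR, 0.00524 by DESeq2), and was chosen after its values were seen. The endothelial markers, where Slc6a6 is also known to be expressed, moved the same way: all 10 had a higher mean in STZ, and their sum was 57.1 to 180 CPM with vehicle and 170 to 308 CPM with STZ. Their part in the Slc6a6 values was not tested.

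Of 19 tested genes of GABA synthesis, 2 were higher and 2 lower at an unadjusted p under 0.05, with a median log2 fold change of 0.04. The genes of the glutamate decarboxylases, which make GABA in neurons, were low, at 5.94 TPM for Gad1 and 3.46 TPM for Gad2, and had log2 fold changes of 0.23 and 0.00. In the polyamine branch the most abundant genes were Oaz1, Sat1 and Smox, which encode antizyme, spermidine/spermine acetyltransferase and spermine oxidase. Their log2 fold changes were 0.12, 0.19 and 0.10 (adjusted p from 0.499 to 0.794, edgeR). The smallest p belonged to Aldh1a1, an aldehyde dehydrogenase that can make GABA from an aldehyde of putrescine. It had 183, 140 and 155 normalized CPM with vehicle and 124, 108 and 116 with STZ, without overlap (log2 fold change -0.45, standard error 0.110, adjusted p = 0.279 by edgeR, 0.0339 by DESeq2).

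The 7 enzymes around succinate semialdehyde and succinate held 0 genes at an unadjusted p under 0.05 in either direction. Their most abundant members were Suclg1, Akr1a1 and Sucla2, of which the first and the last encode subunits of succinyl-CoA synthetase, with log2 fold changes of 0.13, -0.05 and -0.06. The 9 other GABA-A subunits tested had a median log2 fold change of -0.21, with 1 higher and 2 lower at an unadjusted p under 0.05. The lower ones were Gabrb1 and Gabrr2, a rho subunit at 2.17 TPM (log2 fold change -0.81, adjusted p = 0.339, edgeR). The other 8 subunits, among them Gabrd and Gabra6, lacked a count in at least 1 sample and were not tested.

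**Figure D5:**
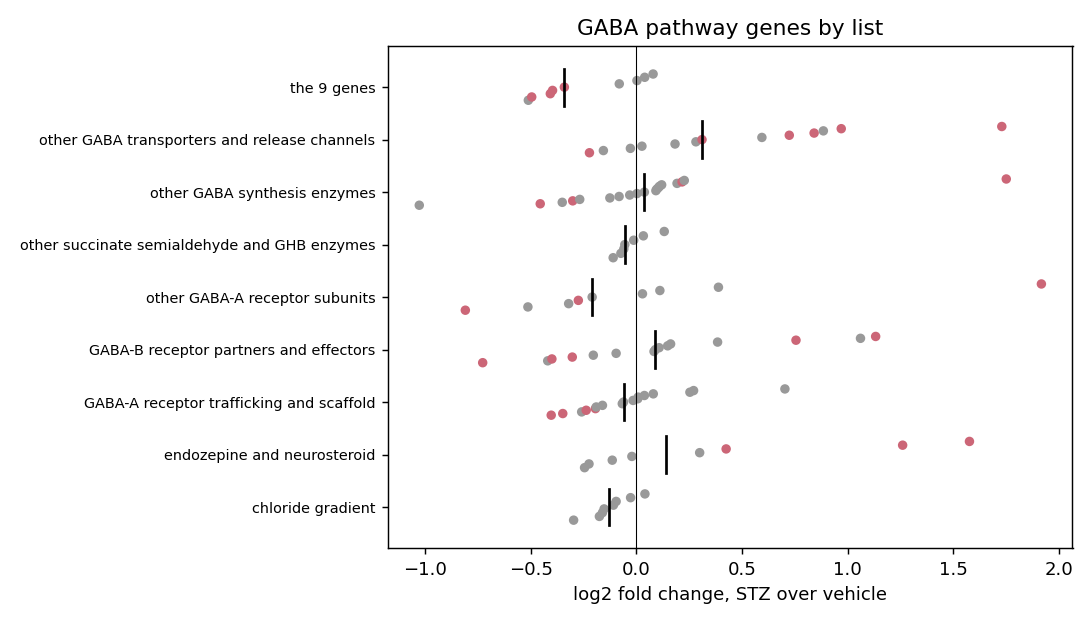
Log2 fold change of each tested gene by list, with the 9 genes in the top row. Points are red at an unadjusted p under 0.05 (edgeR) and grey otherwise, and black bars mark the median of a list. The median of the 9 genes is -0.34, and the medians of the other lists lie between -0.21 and 0.31.

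Of 15 tested partners and effectors of the GABA-B receptor, 2 were higher and 3 lower at an unadjusted p under 0.05. The inhibitory G protein genes Gnai2 and Gnao1 and the amyloid precursor gene App were the most abundant. Gnao1 had 452, 418 and 383 normalized CPM with vehicle and 334, 356 and 326 with STZ, without overlap (log2 fold change -0.30, adjusted p = 0.306, edgeR), whereas Gnai2 and App had log2 fold changes of 0.09 and -0.10. Rgs4, a regulator that shortens G protein signals, was the third gene called by DESeq2 (log2 fold change 0.76, adjusted p = 0.328 by edgeR, 0.0413 by DESeq2), and was also chosen after its values were seen. Of 17 trafficking and scaffold genes, 0 were higher and 4 lower. The abundant Gabarap and Gabarapl2, whose products act in receptor trafficking, had log2 fold changes of 0.01 and 0.01.

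Dbi, which encodes the diazepam binding inhibitor, a peptide that modulates GABA-A receptors and binds acyl-CoA, was far more abundant than any member, at 2392 TPM. It had 497, 558 and 600 normalized CPM with vehicle and 734, 758 and 731 with STZ, without overlap (log2 fold change 0.43, standard error 0.0902, adjusted p = 0.227 by edgeR, 0.00645 by DESeq2). Its mitochondrial receptor gene Tspo had a log2 fold change of 0.30 (adjusted p = 0.662, edgeR). In this list of 8 tested genes, 3 were higher and 0 lower at an unadjusted p under 0.05. Among the 8 genes of the chloride gradient, which sets the direction of GABA-A currents, 0 had an unadjusted p under 0.05. Car2, a carbonic anhydrase, had the highest TPM and the smallest p of them (log2 fold change -0.17, adjusted p = 0.531, edgeR), and Slc12a2, the sodium-potassium-chloride importer, had a log2 fold change of -0.16 (adjusted p = 0.696, edgeR).

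Across the 6 samples, Slc6a11 varied together with Gabbr1 (Pearson correlation of log2 CPM 0.96, a description with no test), Abat (0.94) and Gabra2 (0.72), and not with Maob (-0.11). Among 16251 other genes with a mean of at least 1 CPM, Sppl3, Olig1 and Pdpn had the highest correlations with Slc6a11 (0.996, 0.994 and 0.994). For Slc6a13 they were Tor4a, Prelp and Abhd14a (0.997, 0.981 and 0.971), and for Abat they were Gm40620, Usp47 and Igdcc4 (0.998, 0.994 and 0.993). The points share the groups and vehicle replicate 1, in which Slc6a11 was highest.

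Markers of astrocytes and of other cells also differed between the groups. Of the 12 astrocyte markers, 4 were lower and 1 was higher in STZ at an unadjusted p under 0.05, and the median of their log2 fold changes was -0.15, beside -0.34 for the 9 genes. Aqp4, the astrocyte water channel, had the most negative log2 fold change of them, -0.48 (chosen after its values were seen), within the range of Slc6a11, Abat, Gabbr1 and Gabra2. The summed oligodendrocyte precursor markers were 1273 to 1561 CPM with vehicle and 1107 to 1142 CPM with STZ, mostly from Ptprz1, Olig1 and Olig2, while Cspg4 stayed between 2.70 and 4.11 CPM. Of that list, 4 of 10 genes had a higher mean in STZ. Genes that mark telencephalic astrocytes summed to 6807 to 7359 CPM with vehicle and 4845 to 6038 CPM with STZ, almost all from Mfge8, and 7 of the 10 had a higher mean in STZ. Genes of diencephalic and hindbrain astrocytes summed to 2362 to 3141 CPM with vehicle and 3229 to 3952 CPM with STZ, mostly from Agt, and 5 of the 13 had a higher mean in STZ. Slc6a9, a glycine transporter of that list (chosen after its values were seen), was at 366 to 514 CPM with vehicle and 287 to 349 CPM with STZ. The summed markers of oligodendrocytes (740 to 2314 CPM with vehicle, 796 to 2982 with STZ), microglia (734 to 1067 and 717 to 994), ependymal cells (116 to 324 and 262 to 365) and Bergmann glia (1927 to 2218 and 2058 to 2566) overlapped between the groups. Those of pericytes and smooth muscle (152 to 194 and 189 to 247) overlapped as well, but 9 of the 10 genes had a higher mean in STZ and 4 an unadjusted p under 0.05, with a median log2 fold change of 0.81. The smooth muscle gene Tagln, chosen after its values were seen, was at 0.597 to 1.19 CPM with vehicle and up to 6.13 CPM with STZ, without overlap (log2 fold change 2.65). For choroid plexus, 0 of the 10 markers had a higher mean in STZ and 0 an unadjusted p under 0.05, with a median log2 fold change of -0.36. The part of cell and region makeup in the values of Slc6a11, Abat, Gabbr1 and Gabra2 was not tested.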

How the data were processed

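RNA of tdTomato-positive astrocytes was sequenced in 3 vehicle and 3 STZ samples. Groups and replicate numbers came from the sample titles, and the members and lists were chosen with earlier results of these data known. Per the submitters' processing notes, reads were trimmed with Trimmomatic 0.38, aligned to mm10 with HISAT2 2.1.0 and quantified with StringTie 2.1.3b. The labels name a SMART-Seq mRNA kit and the paper's methods a TruSeq v2 kit with SMART-Seq v4; strand is not stated. The authors deposited read counts per gene without normalization, FPKM and TPM; the FPKM values deposited by the authors entered no result. All measurement columns belonged to mapped samples.

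Of 45777 genes, the 22337 that had 1 count or more in all samples entered edgeR's quasi-likelihood test (edgeR 4.0.16, R 4.3.3; TMM, group only, two-sided, Benjamini-Hochberg over all genes). A gene was called at adjusted p under 0.05 with a difference of more than 1.5-fold. Standard errors are the log2 fold change over the square root of the F statistic. CPM values are TMM-scaled. A floor of 3 counts corresponded to 0.0511 to 0.0571 CPM, for counting error only. P-values measure the spread between pools of mice. Ratios of TPM were compared with exact permutation tests. Alternatives were DESeq2 1.42.0, its size factors, other filters, a replicate block, robust fitting, limma 3.58.1 on log2(TPM + 1) and log2(TPM + 0.1), and leaving out each sample. Procedures were tested on simulated data. Named genes of a list were the 3 highest by TPM, the smallest p and any called; some of these genes are not reported here. Positions are those of RefSeq on GRCm38. Python 3.11.15 was used for tables.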

Additional observations from a re-analysis of the deposited data

How the results depend on the processing

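Of 126 results (9 genes, 14 alternatives), 117 kept their direction and side of the threshold and 9 reversed. With a sample left out, the log2 fold change of Aldh5a1 ranged from -0.074 to 0.17 and that of Gabbr2 from -0.0056 to 0.21, both negative only without vehicle replicate 2. That of Gabrg1 was -0.0019 with DESeq2, -0.0019 with its size factors, -0.0048 with no filter, and from -0.091 (without vehicle replicate 2) to 0.10 with a sample left out. No alternative with the fold limit called any of the 9; DESeq2 without it, chosen after seeing the data, called 2 of the 9 and 383 genes in all. The 4 genes lower at an unadjusted p under 0.05 were 2 to 5 with a sample left out: 2 (Abat and Gabra2) without STZ replicate 2 or 3, and 5 without vehicle replicate 1. The count of called genes was 5; it was 234 with DESeq2, 10 with robust fitting, 0 with limma on either TPM scale and 0 to 1 with a sample left out. DESeq2 called 3 of the other GABA genes. With a sample left out, between 8 and 13 of them were higher and between 7 and 13 lower at an unadjusted p under 0.05, the fewest without vehicle replicate 2 and vehicle replicate 3.

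The log2 ratio of Slc6a11 to Slc6a13, whose difference was -0.09, was 0.67 higher in STZ without vehicle replicate 1 and 0.12 higher without STZ replicate 2 (range -0.59 to 0.67), and that of Maob to Maoa was 0.03 higher without vehicle replicate 2 (0.031, range -0.15 to 0.031). The differences of Abat to Aldh5a1, Gabbr1 to Gabbr2 and Gabra2 to Gabrg1 kept their sign. The cause was not tested for any of these.

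With the replicate number as a block, 0 genes were called and the same number of the 9, 4, had an unadjusted p under 0.05; the adjusted p of Slc6a11 was 0.605, the highest of the 4. The deviations of same-numbered samples from their group means correlated at -0.10, -0.16 and -0.18. Same-numbered samples are different pools of mice, and no pairing of them is stated. With 3 samples per group, these correlations cannot decide whether same-numbered samples were processed together. Slc6a13, at 69 to 268 counts, was the member most limited by depth and spread.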
